A study of Macaca mulatta with 95 samples.

Results

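GATA4, a zinc-finger transcription factor of the hypoblast, split the inner cells of the rhesus macaque middle blastocyst into 2 classes. The 8 inner cells whose titles begin with the letters G and H, of 95 cells in the series, were divided at a GATA4 level of 50 RPKM (reads scaled to gene length in kilobases and to library size in megareads). The GATA4-high class held the 4 cells G-02, G-03, G-04 and G-10, at 133, 141, 103 and 111 RPKM, and the GATA4-low class the 4 cells H-03, H-05, H-09 and H-10, all listed at 0. No cell lay near the threshold. These values chose the classes and are not a result. Every GATA4-high cell carried letter G and every GATA4-low cell letter H, and the labels do not explain the letters, so the class and whatever a letter stands for cannot be told apart in these 8 cells.

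The series followed single cells of cultured embryos, with no treatment contrast in the labels, from cleavage to the hatched blastocyst. Oocytes came from females given follicle-stimulating hormone and chorionic gonadotropin, and were fertilised and cultured in medium with serum. The middle blastocysts, whose cavity takes up about as much of the embryo as its cells, were collected near day 5.5, the early ones near day 5 and the late ones near day 6. A membrane dye stained outer cells before dissociation, and inner cells were those without the dye. The comparison cells were 3 letter G and 2 letter H inner cells of the early blastocyst, and 10 letter G inner cells of the late blastocyst, 3 of them at or above 50 RPKM of GATA4 and 7 below. No label names an animal or an embryo, so cells of a class may be sisters, each class counts as 1 sample, and no difference below carries a test. An SD beside a mean is the spread over its cells.

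The inner cell mass of a mammalian blastocyst gives rise to the epiblast, which forms the fetus, and to the hypoblast (primitive endoderm), an epithelium that lines the cavity and contributes to the yolk sac. Hypoblast cells are known for the factors GATA6, SOX17, GATA4 and FOXA2, for laying down a basement membrane of type IV collagen, laminin and nidogen, and later for secreting apolipoproteins. Epiblast cells keep NANOG and SOX2, and fibroblast growth factor signalling through ERK is known to bias inner cells toward hypoblast in the mouse.

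The classes differed in scale. Relative sequencing depth, read from the steps between low values with cell G-02 set to 1, ran from 1 to 1.2 in GATA4-high and from 0.82 to 1.3 in GATA4-low cells. GATA4-high cells had 4296 to 5681 genes at 1 RPKM or more and GATA4-low cells 3891 to 4703, with total RPKM of 663234 to 708377 and of 836052 to 855747. Differences are given as log2 of the ratio of class means after adding 1 RPKM, which understates low genes, and genes with a mean of 5 RPKM or more in either class are called measured. A gene under that minimum in one class is measured only through the other class, so any call it gets is toward that other class. Of 6686 measured genes other than GATA4, 2283 (34.1%) were at least 2-fold higher in GATA4-high cells and 1714 (25.6%) at least 2-fold lower. The 2 classes did not overlap for 514 genes (7.69%) on the higher and 217 (3.25%) on the lower side. The median over all measured genes was 0.20, and it moved to -0.04 with median-of-ratios size factors and to 0.53 with equal totals. Higher genes made up 57.1% of the 2-fold calls, against 50.3% and 65.4% under those scalings. Because the class split used this contrast, the shares are background to the counts below and nothing is read from them. Without any 1 of the 8 cells, 1104 (16.5%) of the measured genes were at least 2-fold higher every time and 615 (9.2%) lower every time.

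Of the hypoblast transcription factors, 9 of 22 in the table besides GATA4 were measured, 4 of them higher and 2 lower in GATA4-high cells. Their median was 0.96. Beside this and each list below stand the shares over all measured genes, 34.1% higher and 25.6% lower. For calls that held without any 1 cell these shares were 16.5% and 9.2%. SOX17, an endoderm factor, stood at 94.2, 133, 50.4 and 0 RPKM in G-02, G-03, G-04 and G-10, the cell order used throughout, and was listed at 0 in all GATA4-low cells. It was thus high in 3 of the 4 cells of its class. FOXA2, a forkhead pioneer factor of endoderm, stood at 24.0, 0.382, 3.95 and 43.5 RPKM and was listed at 0 in all GATA4-low cells. G-10, the cell listed at 0 for SOX17, had the most FOXA2, and G-03, the cell with the most SOX17, had the least. HNF4A, a nuclear receptor of liver and yolk sac, was present in both classes, at 48.0, 52.4, 16.3 and 21.0 RPKM against 5.38, 6.73, 21.0 and 20.6 RPKM in H-03, H-05, H-09 and H-10, a difference of 1.29. The lower members were OTX2 and GSC, homeobox factors of anterior endoderm. OTX2 stood at 0, 7.03, 0 and 0.0297 RPKM in the GATA4-high class and at 8.42, 9.97, 95.7 and 0 RPKM in the GATA4-low class, where H-09 is far above the others. GSC stood at 5.05, 3.54, 0.0487 and 37.2 against 0, 6.80, 72.6 and 107 RPKM. PDGFRA, a receptor that marks mouse hypoblast, reached at most 0.135 RPKM in any of the 8 cells and SOX7 at most 0.0202 RPKM. The level of GATA6 is not reported here, and list members not reported singly are still counted in their lists.

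Of the lists with more than 1 measured member, matrix and basement membrane genes had the largest share of higher members. The table holds 25 of them and 18 were measured. Among these 15 were higher and 0 lower, and the median was 3.28. For 11 the classes did not overlap on the higher side, as for 7.69% of all measured genes. Members near 0 in GATA4-low cells were measured only through the GATA4-high class, so their direction was fixed on entry. Leaving out any 1 cell kept 13 of the 15, or 72.2% of the measured members, against 16.5% of all measured genes. The exceptions were P4HA2, which fell under the 5 RPKM minimum without G-04, and ITGA6, an integrin subunit, whose difference of 1.08 lay between 0.69 and 0.99 without G-04, G-10, H-05, H-09 or H-10. SERPINH1, the collagen chaperone HSP47, stood at 552, 347, 520.0 and 939 RPKM in GATA4-high cells and at most 0.0370 RPKM in GATA4-low cells, the largest higher difference of any measured gene whose classes did not overlap (9.18). NID2, which links laminin to collagen IV, stood at 489.8, 313, 512 and 197 against 4.07, 0, 0 and 0.107 RPKM (7.53), and its relative NID1 at 77.0, 25.7, 66.2 and 65.5 against 6.01, 0, 0 and 0 RPKM (4.57). SPARC, a secreted collagen-binding protein, stood at 166, 173, 324 and 38.6 RPKM and at most 0.0713 RPKM in the other class (7.41). All 4 GATA4-high cells thus held these transcripts, and G-10 held the most SERPINH1 and the least NID2 and SPARC.

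The collagen IV chains followed the same split. COL4A1 stood at 14.1, 92.4, 79.0 and 97.2 RPKM and at most 0.0274 RPKM in GATA4-low cells (6.14), and COL4A2 at 35.2, 64.9, 36.4 and 22.0 against 0.00972, 1.09, 9.21 and 0.0191 RPKM (3.50). The laminin chains were less divided, since GATA4-low cells also held them. LAMA1 stood at 19.5, 35.7, 26.7 and 12.3 against 2.97, 0.197, 3.81 and 0 RPKM (3.16). LAMB1 stood at 77.8, 101, 75.9 and 108 against 0.0109, 3.94, 34.8 and 0.0214 RPKM (3.10), with H-09 again the highest of its class. LAMC1 stood at 83.2, 83.5, 75.6 and 55.4 against 14.5, 36.9, 14.6 and 0.324 RPKM (2.10). Fibronectin, FN1, was present in 3 of the 4 GATA4-high cells, at 25.1, 8.47, 16.1 and 0 RPKM, and at most 0.0182 RPKM in GATA4-low cells. The prolyl hydroxylase subunit P4HB, which most cells use for protein folding, was between the thresholds at 0.71.

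**Figure D1:**
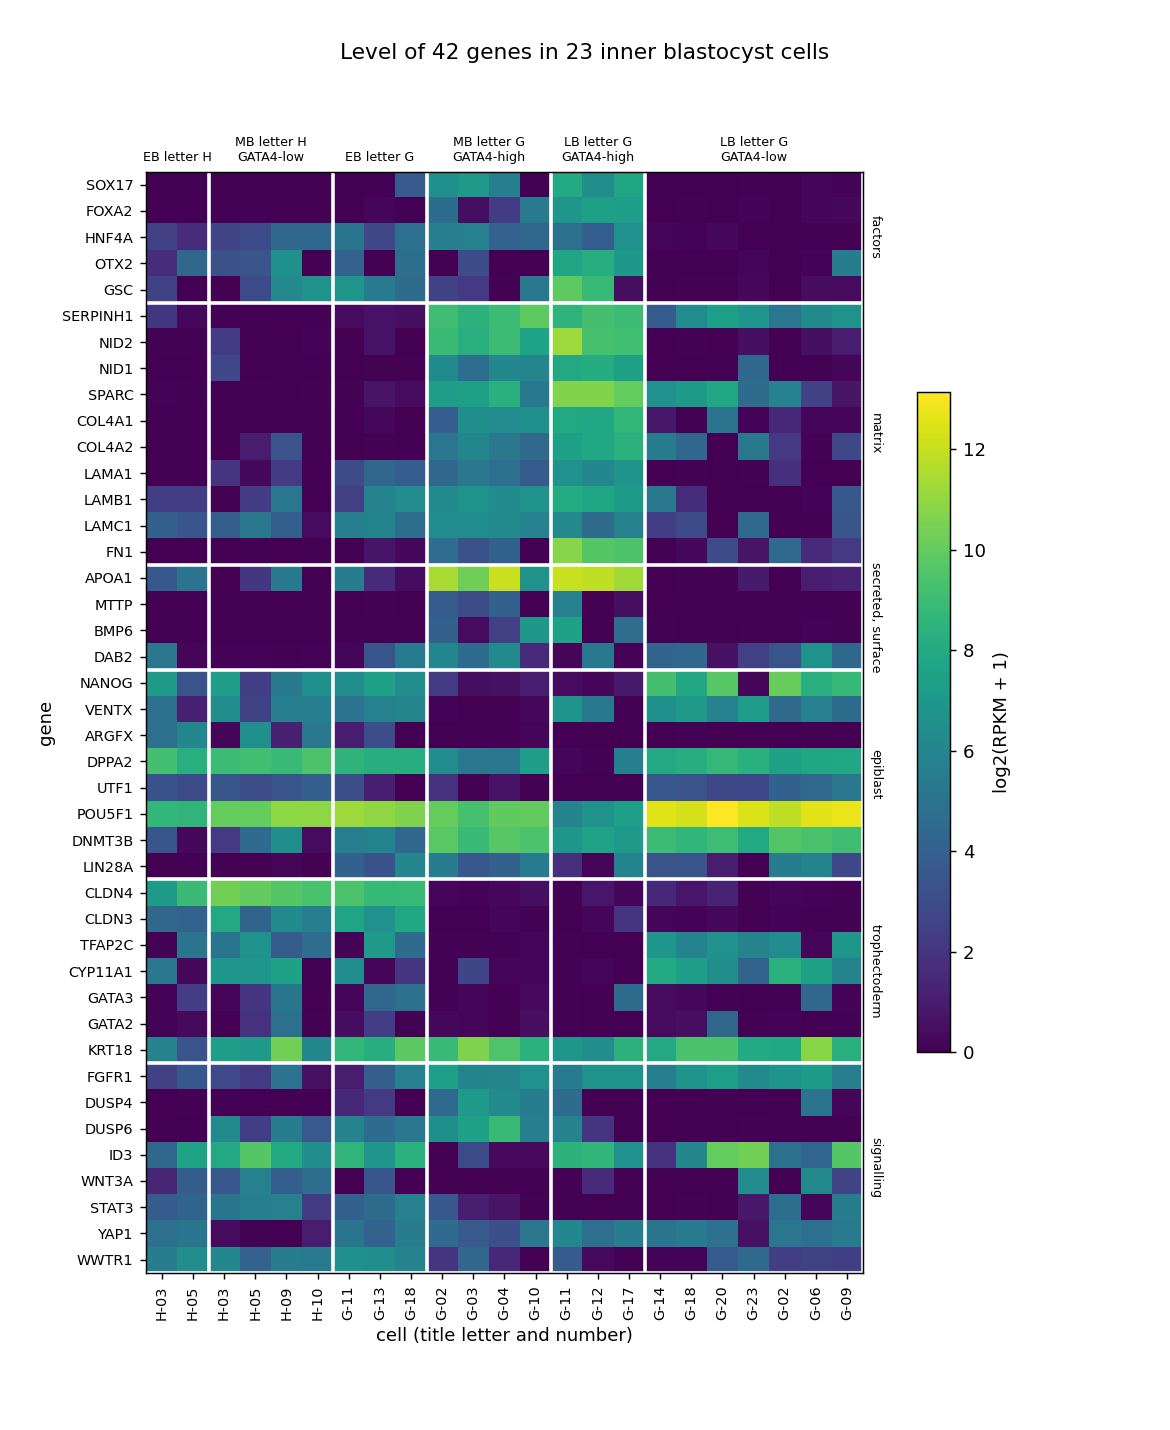
Heat map of log2(RPKM + 1) for 42 genes (rows, grouped by role, picked from the lists after their values were seen) in 23 inner cells (columns) of the early (EB), middle (MB) and late (LB) blastocyst, grouped by title letter and GATA4 class. Matrix genes are bright in the middle blastocyst GATA4-high and late blastocyst GATA4-high columns and, apart from the laminin chains LAMB1 and LAMC1 and single cells of other genes, dark in both letter H blocks, where SERPINH1 reaches at most 0.0370 RPKM at the middle blastocyst.

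Secreted apolipoproteins and related genes had 6 measured members of 23 in the table, 3 higher and 2 lower, with a median of 1.21 (3 higher and 3 lower with median-of-ratios size factors). APOA1, the main protein of high-density lipoprotein, stood at 2836, 1253, 4368 and 105 RPKM in GATA4-high cells and at 0, 3.22, 38.3 and 0 RPKM in GATA4-low cells (7.55). The classes did not overlap, but G-10 lay closer to H-09 than to the other cells of its class on the log scale. MTTP, which loads lipid onto apolipoprotein B, stood at 13.0, 7.16, 16.2 and 0 RPKM and was listed at 0 in all GATA4-low cells. CLU was higher only through G-03, at 31.9 RPKM, and differed by 0.47 without that cell. APOC1 and APOC3 were the lower members, at -1.22 and -1.85, and APOC1 differed by -0.94 without G-02 and by -0.69 without H-05. The other 17 members lay under the minimum.

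Endocytosis and surface genes were evenly split, with 3 higher and 3 lower of 10 measured and a median of 0.14, or -0.04 with median-of-ratios size factors. DAB2, an endocytic adaptor that mouse primitive endoderm needs, stood at 64.5, 23.4, 75.5 and 2.07 RPKM and between 0.0728 and 0.0950 RPKM in GATA4-low cells (5.29). BMP6, a secreted ligand, stood at 16.1, 0.286, 4.58 and 128 RPKM against 0 in all GATA4-low cells, with G-10 far above the rest. Clathrin light chain CLTB was the remaining higher member (2.75). The lower members were the peptidases DPP4 and ANPEP and the WNT inhibitor DKK1. DKK1 rested on H-05 at 84.2 RPKM and differed by -0.05 without it, and DPP4 by -0.39. ANPEP was within 2-fold without G-03, G-04, H-03 or H-05, and differed by -0.86 without G-03. Over the 4 hypoblast lists together, 43 members were measured, 25 higher and 7 lower with a median of 2.10, and 22 of the 25 stayed higher without any 1 cell. The matrix list gave 15 of the 25 higher members and 0 of the 7 lower ones, so the pooled count rested mostly on it. Of all measured genes, 34.1% were higher and 25.6% lower. For 7 of the 43 all GATA4-low cells were listed at 0, and for 1 all GATA4-high cells.

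Epiblast and pluripotency genes had 27 measured members of 41 in the table, with 4 higher, 9 lower and a median of -0.68. NANOG, a homeobox factor of the epiblast, stood at 3.69, 0.395, 0.480 and 1.08 RPKM in GATA4-high and 160.4, 4.45, 39.2 and 96.4 RPKM in GATA4-low cells (-4.98), and the highest GATA4-high cell lay just under H-05. VENTX, a NANOG-related homeobox gene, stood at 0.0814, 0.0241, 0.0225 and 0.227 against 87.1, 4.83, 47.8 and 50.6 RPKM (-5.48). DPPA2, a chromatin factor of pluripotent cells, was present in all 8 cells at 84.0, 37.1, 34.6 and 167 against 519, 569, 475 and 699 RPKM (-2.79). UTF1 followed at -2.68 and ARGFX, a homeobox gene of early primate embryos, at -5.05, with 0.150, 97.2, 1.31 and 36.5 RPKM over the GATA4-low cells. The remaining lower members depended on single cells: LIN28B differed by -0.01 without H-05, SOX15 by -0.66 to -0.73 without G-03, G-04, H-03 or H-10, TFCP2L1 by -0.94 without G-02 and -0.57 without H-03, and TRIM8 by -1.07 without H-09, where it also lay under the minimum. In all 5 of the 9 held without any 1 cell.

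Core pluripotency factors did not all follow NANOG. POU5F1, which both lineages express at first, stood at 1056, 631, 976 and 1002 against 1033, 1052, 1952 and 1918 RPKM, a difference of -0.70 with overlapping classes. SOX2 reached at most 0.0612 RPKM in the 8 cells and was not measured. The higher members were led by LIN28A, an RNA-binding regulator of let-7 maturation, at 46.6, 10.8, 15.6 and 40.4 against 0.0184, 0.0260, 0.132 and 0 RPKM (4.81). DNMT3B, a de novo DNA methyltransferase, stood at 873, 485, 862 and 690.0 against 3.52, 23.3, 91.1 and 0.300 RPKM (4.58), so both were high in all GATA4-high cells. L1TD1 was higher by 1.75, and NODAL was present only in G-03 at 23.3 RPKM among cells above 1 RPKM.

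Trophectoderm genes, which mark the outer epithelium that forms the placenta, had 9 of 16 measured members lower and 4 higher, with a median of -1.41. CLDN4, a tight-junction claudin, had the largest lower difference of any gene whose classes did not overlap, at 0.194, 0.103, 0.225 and 0.433 against 1294, 1006, 833 and 663 RPKM (-9.58). CLDN3 stood at 0, 0, 0.151 and 0.0567 against 245, 17.9, 74.2 and 50.6 RPKM (-6.54). TFAP2C, a factor of trophectoderm and also of naive pluripotent cells, reached 0.137 RPKM at most in GATA4-high cells against 33.4, 104, 13.3 and 24.9 RPKM (-5.39). CYP11A1, the steroidogenic side-chain cleavage enzyme, stood at 113, 116, 180.0 and 0 RPKM in GATA4-low cells and at most 5.67 RPKM in the others (-5.36). These 4 were the lower members that held without any 1 cell. GATA3 and GATA2, at -3.16 and -2.85, rested on H-09, without which they differed by -0.88 and -0.68, and ELF3 differed by -0.91 without H-03. Of the higher members only DAB2 held: ENPEP differed by 0.66 without G-02, OVOL1 fell under the minimum without G-02, and KRT19 differed by 0.37 to 0.96 without G-04, H-03, H-05 or H-10. H-09 held 27.7 RPKM of GATA2, 33.0 of GATA3, 1304 of KRT18, 1419 of KRT8 and 236 of KRT19. The keratins KRT18 and KRT8 did not pass 2-fold between class means (0.91 and 0.18) but were higher with medians over cells (2.03 and 1.09). Over the omissions of 1 cell KRT18 ran from 0.31 to 2.70, KRT8 from -0.19 to 1.51 and KRT19 from 0.37 to 4.03. The summed RPKM of the list ran from 893 to 2799.8 in GATA4-high and from 1210 to 4539 in GATA4-low cells. Its part in the class differences was not tested.

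In the FGF and ERK list, 7 of 23 measured members were higher and 6 lower, and 6 and 3 of them held without any 1 cell. The median was 0.10, or -0.02 with median-of-ratios size factors. The 2-fold counts lay near the shares over all measured genes (34.1% and 25.6%), and no difference of the list as a whole is read from them. Calls that held made up 26.1% and 13% of the list, against 16.5% and 9.2% of all measured genes. FGFR1, a receptor for FGF4, stood at 167, 59.8, 63.0 and 99.1 against 6.36, 3.71, 31.4 and 0.519 RPKM (3.10). The dual-specificity phosphatases that ERK induces and that restrain it differed among themselves. DUSP4 stood at 21.1, 135, 76.4 and 47.2 RPKM against 0 in all GATA4-low cells, DUSP6 at 91.0, 181, 467 and 48.9 against 78.2, 4.51, 46.1 and 11.6 RPKM (2.46), and DUSP5 was lower (-1.63). The feedback inhibitors SPRED1 and SPRY1 were listed at 0 in all GATA4-low cells and reached 17.7 and 39.6 RPKM in GATA4-high cells. Their relative SPRED2 was lower (-2.24), and SPRY2 and SPRY4 lay between the thresholds (0.46 and -0.34). FGF8 was present only in H-03, and FOS in H-09 mainly, so both calls ended without those cells. FGFR2, MAP2K1 and MAP2K2 lay between the thresholds.

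Among BMP genes 6 of 13 measured members were higher and 3 lower (median 0.50), against 4 and 3 of 11 with median-of-ratios size factors (median 0.01). Without any 1 cell 4 of the 6 and 2 of the 3 held. The HLH inhibitors that BMP signalling induces went apart: ID3 stood at 0, 6.81, 0.246 and 0.276 against 246, 819, 265 and 86.9 RPKM (-6.97), while ID2 stood at 43.8, 0.175, 45.8 and 1.96 against 0, 0, 0 and 0.168 RPKM (4.52). The receptor BMPR1A was higher (2.42) and the activin inhibitor FST lower (-3.90). WNT genes were 6 higher and 4 lower of 15 (median 0.41), of which 4 and 1 held without any 1 cell, with the ligand WNT3A at 10.7, 51.3, 14.4 and 24.8 RPKM in GATA4-low cells and at most 0.0200 RPKM in the others (-4.71). The ligand WNT3 was present only in H-05, at 146 RPKM. Nodal genes had 3 higher and 1 lower of 9 (median 0.08), the lower one being the effector SMAD3 (-2.86). Median-of-ratios size factors gave 1 higher and 1 lower of 7 (median -0.22), and 1 of the 3 higher calls held without any 1 cell. NODAL rested on G-03. LIF and IL6 genes had 3 higher and 2 lower of 10 (median 0.70), and 1 of each direction held without any 1 cell. Of all measured genes 34.1% were higher and 25.6% lower, and 16.5% and 9.2% held. The WNT, Nodal, and LIF and IL6 counts were small or near these shares, and no difference of those lists as a whole is read from them. STAT3, the transcription factor that LIF activates, stood at 11.0, 1.16, 0.637 and 0.0398 against 33.1, 50.4, 52.7 and 3.78 RPKM (-3.09). Hippo genes had 5 higher and 2 lower of 10 (median 2.10). The co-activator YAP1 stood at 23.3, 11.7, 8.34 and 35.6 against 0.296, 0.0523, 0.0331 and 1.08 RPKM (3.93), while its paralogue WWTR1 (TAZ) went the other way, at 2.88, 19.5, 1.80 and 0.0128 against 69.1, 16.8, 47.0 and 44.0 RPKM (-2.68). NF2, an upstream Hippo component, was lower (-3.53), and the scaffold AMOT stood at 6.72, 5.55, 1.14 and 31.8 RPKM against 0.0732, 0, 0 and 0 RPKM, under the minimum without G-10.

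**Figure D2:**
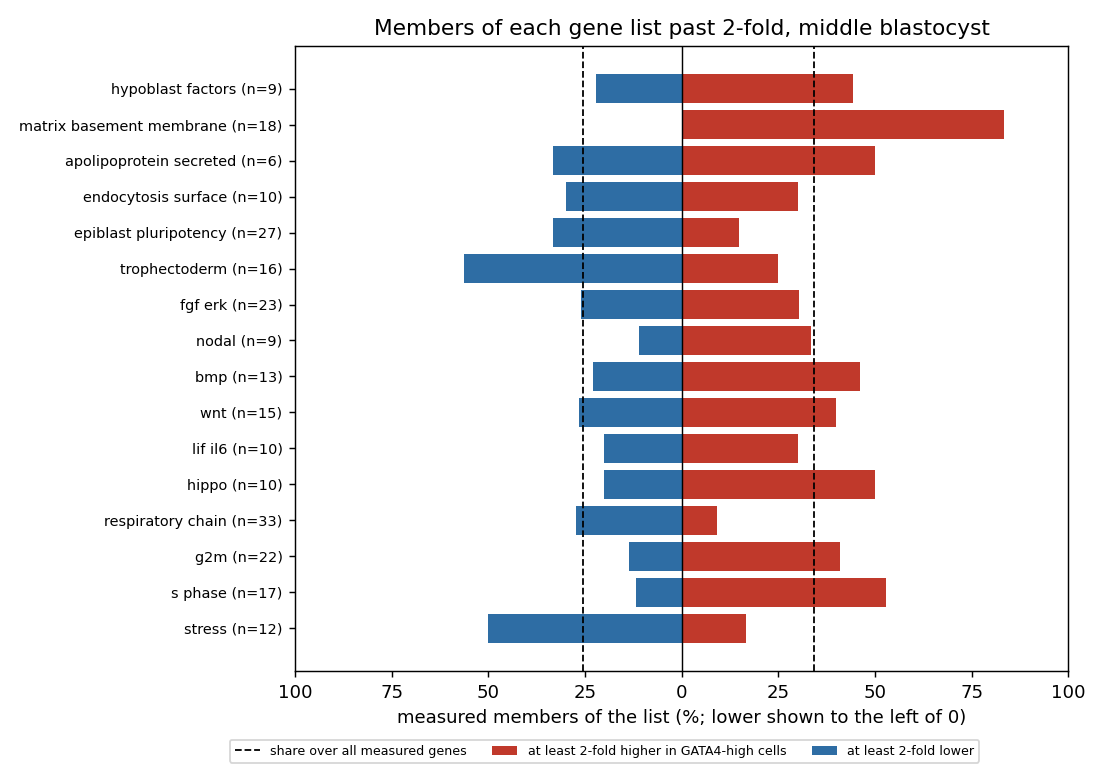
Share of the measured members of 16 gene lists (rows, n in brackets) that were at least 2-fold higher (right, red) or lower (left, blue) in GATA4-high than in GATA4-low middle blastocyst inner cells, with the shares over all 6686 measured genes as dashed lines (34.1% and 25.6%). The matrix list has 15 of 18 members on the higher side and none on the lower side, and the trophectoderm list has 9 of 16 lower.

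Genes outside the lineages were counted in the same way, beside the same shares over all measured genes (34.1% higher and 25.6% lower, 16.5% and 9.2% for calls that held). Of 33 respiratory chain genes 3 were higher and 9 lower (median -0.40), with NDUFB2 at 411, 536, 385 and 479 against 2209.6, 2133, 1221 and 1601 RPKM (-1.98). Leaving out H-05 ended 6 of those 9 calls, COX6C at -0.73 and COX4I1 at -0.69 among them. G2/M genes had 9 higher and 3 lower of 22 (median 0.80), and 6 of the 9 and 1 of the 3 held without any 1 cell. CCNA2 differed by 0.74 to 0.94 without G-02, G-10, H-03 or H-09. CENPA differed by 0.63 without G-10 and 0.73 without H-10, and TOP2A by 0.65 without G-02 and 0.91 without H-09. PLK1 and CCNB2 lay between the thresholds (0.79 and -0.28). Cell G-10 had high levels of several G2/M genes. Its levels were 319 RPKM of BUB1, 303 of PLK1 and 389 of CCNB2, while the other 3 cells reached at most 63.8, 83.6 and 110.2 RPKM. S-phase genes had 9 higher and 2 lower of 17 (median 1.20), of which 5 and 1 held without any 1 cell. FEN1, a flap endonuclease of DNA replication, stood at 28.0, 3.55, 23.2 and 21.6 against 0.132, 0, 0 and 0 RPKM (4.28), and TYMS, thymidylate synthase, was lower (-2.55). Stress genes had 2 higher and 6 lower of 12 (median -0.87), of which 1 and 1 held without any 1 cell. BAX, a pro-apoptotic gene counted as lower, differed by 2.60 without H-03. Of 20 markers of cumulus, blood, sperm and fibroblast cells only 1 was measured. It was the type I collagen chain COL1A2, at 10.5, 1.20, 85.1 and 118 RPKM in GATA4-high and at most 0.0242 RPKM in GATA4-low cells, and the sum over the list was at most 118 and 0.0445 RPKM in the classes.

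Outside any list, the largest differences without overlap on the higher side included 3 metabolic genes. SLC2A1, the glucose transporter GLUT1, stood at 1616, 672, 1235 and 1616 against 19.8, 0.0468, 0.0148 and 0.0163 RPKM (7.75). AKR1B10, an aldo-keto reductase, stood at 507, 38.7, 298 and 253 RPKM and at most 0.0376 RPKM in GATA4-low cells (8.09), and the haem oxygenase HMOX2 at 239, 317, 64.0 and 23.6 against 0, 0.735, 0.0310 and 0.273 RPKM (7.01). SUSD3 and METTL7B were listed at 0 in all GATA4-low cells and stood at 239, 333, 138 and 22.6 and at 14.4, 44.4, 64.4 and 247 RPKM in GATA4-high cells. LYAR, MOCS2 and TIMM8A completed the 12 genes on this side, with SERPINH1, APOA1, NID2 and SPARC. On the lower side DPRX, a homeobox gene of early primate embryos, stood at 0.657, 0.778, 1.27 and 1.33 against 1792, 2794, 968 and 190.0 RPKM (-9.48). The cytidine deaminases APOBEC3G and APOBEC3C were also there. APOBEC3G stood at 0, 0, 0.166 and 0.112 against 158, 67.8, 29.0 and 156 RPKM (-6.60), and APOBEC3C was listed at 0 in all GATA4-high cells against 48.8, 348, 54.5 and 35.2 RPKM. AQP3, a water and glycerol channel, stood at 200.2, 428, 18.3 and 119 RPKM in GATA4-low cells (-7.55) and BIK, a pro-apoptotic BCL2 family gene, at 98.3, 57.7, 7.33 and 594 RPKM (-7.44). The remaining 7 genes were CLDN4, CLDN3, ID3, C10orf99, TMEM92, PHLDA3 and TIGD3. APOBEC3 genes are similar copies of one another, and how reads shared among them were counted is not given in the sources used here.

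Since class and letter coincide at the middle blastocyst, the same letters were compared a stage earlier, where no inner cell of letters G or H had more than 0.180 RPKM of GATA4. Between 3 letter G and 2 letter H early blastocyst cells, 2390 of 6262 measured genes (38.2%) were at least 2-fold higher in G and 1686 (26.9%) lower. Middle against early cells within letter G gave similar shares (32.4% and 24.9%). Total RPKM ran from 679119 to 745769 in letter G and from 935753 to 1000590 in letter H, and G-18 had a relative depth of 0.464. What these calls come from was not tested. Of the 2283 genes higher in the GATA4-high class, 663 (29%) were higher in letter G at the early blastocyst (27.7% of 2390) and 439 (19.2%; 26% of 1686) lower there. Of the 1714 lower genes, 354 (20.7%; 21% of 1686) were lower in letter G at that stage and 480 (28%; 20.1% of 2390) higher. Matrix genes were 4 higher and 0 lower of 9 measured at the early blastocyst. Those 4 were ITGA6 and the laminin chains LAMA1, LAMB1 and LAMC1, at 3.86, 3.20 and 1.72 for the chains. The collagen and nidogen side was not yet divided, with SERPINH1 at 0.325, 0.557 and 0.458 RPKM in letter G and 3.43 and 0.223 in letter H, and NID2, SPARC, COL4A1 and COL4A2 each under 1 RPKM in all 5 cells. Epiblast genes went 13 higher and 6 lower of 28 in letter G. NANOG stood at 85.5, 184 and 84.5 against 139 and 9.16 RPKM (0.66) and LIN28A already at 15.8, 9.04 and 66.5 against 0.0542 and 0.0349 RPKM (4.91). Trophectoderm genes were mostly on the higher side, 13 of 17, and respiratory chain genes 21 of 33 lower.

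**Figure D3:**
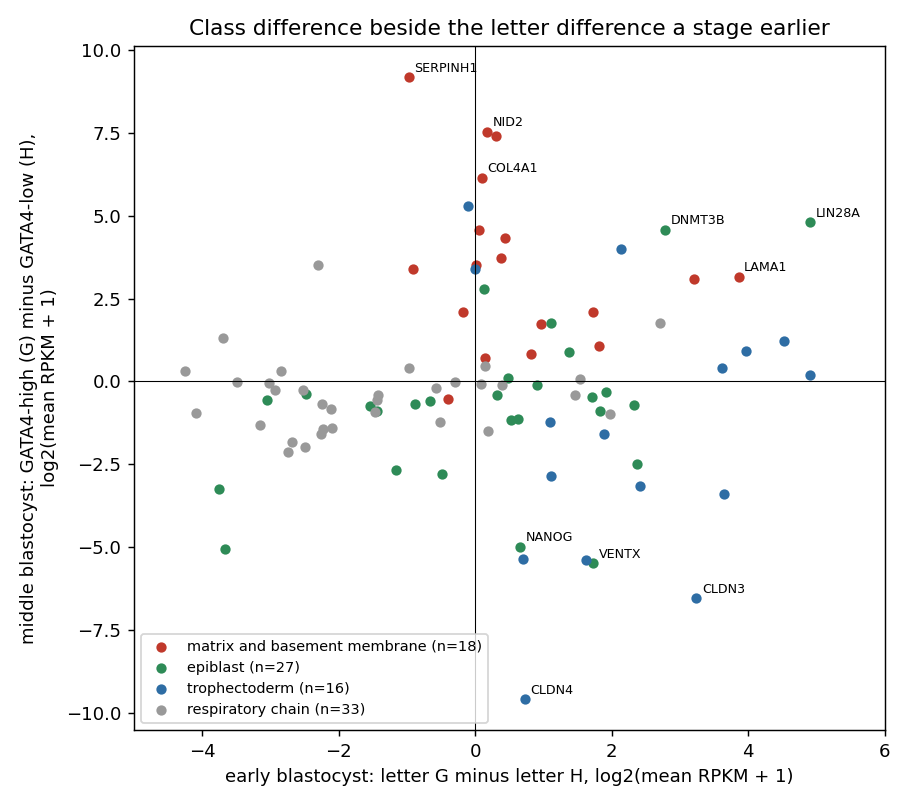
Scatter of the middle blastocyst difference between GATA4-high (letter G) and GATA4-low (letter H) cells (y axis, log2) against the difference between letters G and H at the early blastocyst (x axis, log2), 1 point per measured gene of 4 lists; the cells of the 2 axes are different. SERPINH1, NID2 and COL4A1 lie high on the y axis and between -0.97 and 0.17 on the x axis, while LAMA1 and LIN28A lie high on both.

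The GATA4 split was then applied within a single letter, to the 10 late blastocyst inner cells of letter G. The GATA4-high cells there stood at 141, 55.7 and 238 RPKM. Of 6568 measured genes, 2-fold higher genes in the 3 GATA4-high cells numbered 2013 (30.6%) and 2-fold lower genes 2291 (34.9%). Across all genes, of the 2283 genes higher at the middle blastocyst 560 (24.5%; 27.8% of 2013) were higher and 582 (25.5%; 25.4% of 2291) lower at the late blastocyst. Of the 1714 genes lower at the middle blastocyst, 461 (26.9%; 20.1% of 2291) were lower and 345 (20.1%; 17.1% of 2013) higher there. The hypoblast lists gave 49 higher and 4 lower of 59 measured at the late blastocyst, and 21 of the 25 members higher at the middle blastocyst were higher again. All 17 measured hypoblast factors were higher, among them CER1, EOMES, HHEX, LHX1 and FOXA1, which were not measured at the middle blastocyst. OTX2 and GSC, lower at the middle blastocyst, were higher at the late blastocyst, by 4.80 and 8.70. In these counts, members under the minimum in late GATA4-low cells were measured only through the GATA4-high cells. Their direction was thus fixed on entry.

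Member by member, SOX17 stood at 259, 90.2 and 218 RPKM in the 3 late GATA4-high cells (G-11, G-12 and G-17) and at most 0.123 RPKM in the other 7. FOXA2 stood at 115, 177 and 164 RPKM, so both factors were high in every late GATA4-high cell. NID2 stood at 2410.3, 636 and 577 and APOA1 at 4139, 3757 and 2471 RPKM, with at most 0.991 and 1.36 RPKM in the other 7. SERPINH1 stood at 369, 612 and 508 RPKM, but the late GATA4-low cells held it too, from 13.2 to 169 RPKM (2.53). On the epiblast side, 22 of 36 measured members were lower and 5 higher. NANOG differed by -8.45, and POU5F1, which overlapped at the middle blastocyst, stood at 56.9, 105 and 171 against 3727 to 9054 RPKM (-5.76). DNMT3B went the other way than at the middle blastocyst, at 121, 192 and 137 against 251 to 780.3 RPKM (-1.81). CLDN4 did not differ by 2-fold (-0.27), being at most 1.77 RPKM in all 10 cells.

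Some genes met 3 conditions at once: a difference at the middle blastocyst, the same direction in late letter G cells, and no letter difference in that direction at the early blastocyst. Genes differing the other way between letters met the last condition too. There were 366 on the higher side (16% of 2283) and 348 on the lower side (20.3% of 1714). Before the last condition, 560 of the 2283 were higher and 582 lower in late letter G cells. Of the 1714, 461 were lower and 345 higher. Nothing is therefore read from the 366 and 348 as counts. Among the 10 largest on the higher side were SERPINH1, AKR1B10, APOA1, NID2, SUSD3 and SPARC again, joined by S100A16, a calcium-binding protein, at 211, 143, 754 and 0 RPKM and late 558, 480.5 and 57.2 RPKM, and by TIMP1, an inhibitor of matrix metalloproteinases, at 264, 0.410, 0 and 78.8 and late 126, 76.9 and 124 RPKM. S100A16 was absent from G-10 and TIMP1 from G-04, so neither marked every GATA4-high cell. METTL7B and WBP5 completed the 10. The lower side held IGFBP2, which binds insulin-like growth factors, at 0, 1.24, 0.165 and 0.185 against 20.1, 117, 121 and 29.8 RPKM (-5.71; late -8.22). PSRC1, a spindle protein, stood at 12.6, 0.0716, 0.301 and 0.226 against 177, 186, 235 and 264 RPKM (-5.65), and the adiponectin receptor ADIPOR1 at 6.15, 1.53, 0.567 and 1.24 against 190.4, 126, 180.2 and 116 RPKM (-5.51). TMEM92, APOBEC3G, TIGD3, GPRC5A, HINT3, SAT2 and ACSL4 were the others. For GPRC5A, HINT3, SAT2 and ACSL4 at least 1 GATA4-low cell was also near 0.

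Holding the letter fixed, middle blastocyst cells were compared with early ones. These changes share their middle blastocyst cells with the class comparison and are given side by side only. In letter G 2164 of 6675 measured genes (32.4%) were at least 2-fold higher and 1661 (24.9%) lower at the middle blastocyst, and in letter H 2250 of 6279 (35.8%) higher and 1730 (27.6%) lower. Matrix genes went 12 higher and 0 lower of 18 in letter G, and 3 higher and 1 lower of 8 in letter H. A gene needed a mean of 5 RPKM at either stage of a letter to be measured, so the numbers measured differ. NID2 differed by 8.32 between stages in letter G and by 0.95 in letter H, SERPINH1 by 8.67 and -1.48, and APOA1 by 6.96 and -0.95. NANOG differed by -5.63 in letter G and 0.02 in letter H, so between stages it passed 2-fold in letter G and not in letter H. CLDN4 stood at 677, 454 and 469 RPKM in early letter G cells, and its stage difference was -8.75 in letter G against 1.56 in letter H. ID3 differed by -6.63 against 1.76, and DNMT3B by 4.07 against 2.28. LIN28A, in contrast, was within 2-fold in both letters (-0.10 and -0.00). Trophectoderm genes were 4 higher and 11 lower of 18 in letter G, and 12 higher and 2 lower of 16 in letter H.

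**Figure D4:**
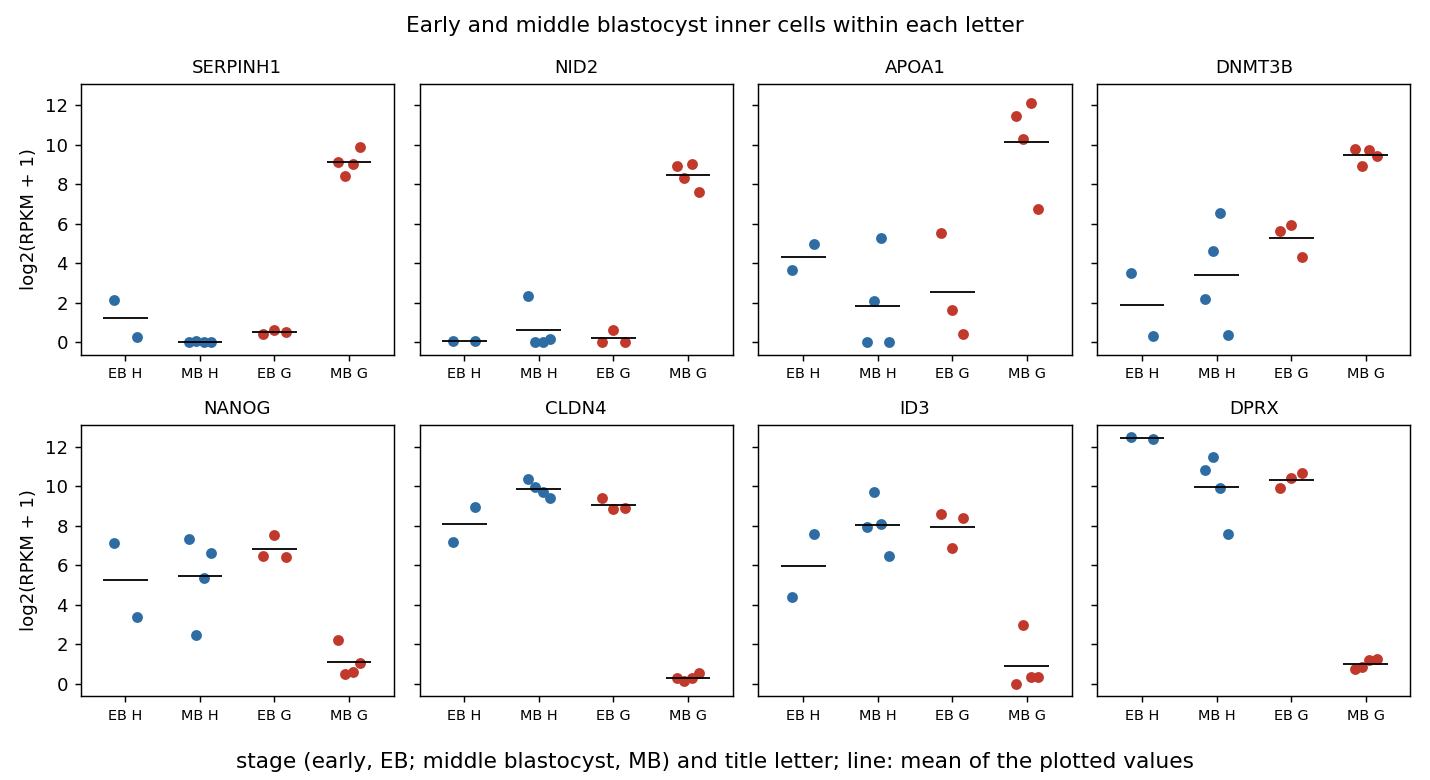
Level of 8 genes, as log2(RPKM + 1), in single inner cells (points) of the early (EB) and middle (MB) blastocyst by title letter (H blue, G red), with lines at the mean of the plotted values. SERPINH1, NID2 and APOA1 separate the letter G middle blastocyst cells from the other 3 groups upward, and NANOG, CLDN4, ID3 and DPRX separate them downward; for NANOG the gap to H-05 is 3.69 against 4.45 RPKM.

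Across the series 13 of 95 cells reached 50 RPKM of GATA4, 9 inner and 4 outer. Of the 12 inner middle blastocyst cells, the 4 of letter B had at most 0.0553 RPKM. The outer cells were 3 of the early blastocyst, from 59.4 to 65.4 RPKM, and 1 of the middle blastocyst, at 309.6 RPKM, so the level alone did not mark inner cells. Over all 95 cells, the genes whose log2(RPKM + 1) followed GATA4 most closely by Pearson's r were CDH2 (N-cadherin) at 0.817, NID2 at 0.799, SOX17 at 0.759, FOXA2 at 0.746 and GAL3ST1, a sulfotransferase of glycolipids, at 0.738. These are descriptions over cells that share stages and letters, and CDH2 reached 5 RPKM in 13 of the cells and FOXA2 in 8. The 95 cells include the 8 whose GATA4 values made the classes, so the levels in those 8 are no separate support. In the 8 cells compared here, CDH2 stood at 26.8, 21.6, 17.3 and 93.8 against 0, 0.216, 1.76 and 0 RPKM (4.77), and GAL3ST1 at 57.0, 81.2, 82.9 and 17.5 RPKM against 0 in all GATA4-low cells.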

How the data were processed

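RNA of single macaque inner cells was sequenced as 100-base single reads after poly(A) tailing and PCR, per the labels' protocols. The authors deposited 1 table of 16049 gene symbols by 95 cells. It does not name its unit, and its values were read as RPKM made by the authors. FastQC, TopHat2 2.1.0, HTSeq and DESeq2 are listed, per the submitters' processing notes, with no role. Coordinates are left out because the genome build is not given in the sources used here, and 14282 symbols matched a RefSeq gene table used for names. All 95 columns were matched by title.

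Class means were compared as log2 of (mean + 1 RPKM), over genes with a mean of at least 5 RPKM in either class, with calls at 2-fold. The calculation was tested on simulated data. No test was made, as cells are not replicates and the labels name no embryo. Relative depth came from the commonest step ratio between cells among values under 3 RPKM. Named genes were members of 17 lists, the 12 of largest difference per direction without overlap, and the 5 most like GATA4. Others were the 10 per direction that also differed the same way in late letter G cells. Between letters at the early blastocyst those were within 2-fold or differed the other way. The members and lists were chosen with earlier results of these data known. Alternatives were pseudocounts of 0.1 and 5 RPKM, other filters, scalings and medians, and leaving out each cell. The individual values of some list members are not reported here. Late blastocyst cells whose source name gives another stage were left out. Python 3.11.15, pandas 2.3.3 and numpy 2.4.6 were used.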

Additional observations from a re-analysis of the deposited data

Results flagged for a closer look

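Within each class of 4 cells, each named gene was checked for a cell whose gap to its nearest neighbour exceeded Dixon's 95% critical share of the class range. Of 422 classes examined 75 were picked out, and chance does so in about 1 of 20 classes of evenly spread values, while single-cell RPKM with many values at 0 are not so spread. The values are in RPKM. Most stand for a cell far above the other 3 of its class.

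Cell G-02 stood above its class with CDC6 23.4, ENPEP 36.7, IL11RA 49.7, P4HA1 60.3 and TEAD2 21.2.

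Cell G-03 stood above its class with ACVR1 21.5, BMPR2 20.1, CLU 31.9, NODAL 23.3 and WWTR1 19.5.

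Cell G-04 stood above its class with ARAF 55.7, ATP5L 189, CDC45 60.0, DDIT3 39.0, NDUFB3 111, P4HA2 35.3, SOCS2 50.2, SPRY4 19.3 and UNG 167. It stood below its class for NDUFA1, at 223, against at least 498 in the others.

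Cell G-10 stood above its class with BMP6 128, BUB1 319, BUB3 528, CCNB2 389, CDH2 93.8, FZD6 45.9, GSC 37.2, HSPA5 503, PLK1 303 and SOCS3 34.2. It stood below its class for SMAD5, at 0.0194, against at least 20.7 in the others.

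Cell H-03 stood above its class with ACVR1B 23.3, AXIN2 25.8, BAX 94.3, CDC6 21.0, FGF8 64.6, PGF 41.1 and RRM1 156.

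Cell H-05 stood above its class with APOBEC3C 348, ATP5J 279.6, BMPR1A 27.6, DKK1 84.2, JAK1 80.8, KIF11 20.8, LIN28B 34.0, LRP6 31.9, NDUFA2 384, PLOD1 62.5, SLC7A2 26.7 and WNT3 146.

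Cell H-09 stood above its class with ACVR1 31.2, APOA1 38.3, AXIN1 47.2, BAMBI 118, CD24 548, CLTA 837, FOS 65.7, FOXH1 484, GATA2 27.7 and GATA3 33.0. The same held in H-09 for JUNB 95.0, KRT18 1304, KRT19 236, LAMB1 34.8, MCM6 18.9, OTX2 95.7, SOCS2 23.0, TRIB3 19.5 and UHRF1 19.8. It stood below its class for SPRED2, at 0.293, against at least 18.6 in the others.

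Cell H-10 stood above its class with BIK 594, BUB3 88.0, CENPE 27.6, ID4 47.3 and SMAD7 31.2.

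H-09 and G-10 recur among genes described in the report. H-09 combined keratins, GATA2, GATA3, OTX2, LAMB1 and APOA1, and G-10 combined G2/M genes with BMP6, GSC, CDH2 and HSPA5.

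For 2 of 239 genes compared between stages, all cells of a class lay on one side at the middle blastocyst and on the opposite side in late letter G cells. DNMT3B differed by 4.58 between GATA4-high and GATA4-low cells at the middle blastocyst and by -1.81 at the late blastocyst, and LYAR by 6.88 and -5.30. The difference between the stages was not tested.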

How the results depend on the processing

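The counts over all genes and those of higher hypoblast and lower epiblast genes moved by at most 1.5 times under other pseudocounts, no filter, both rescalings and the omission of single cells. The other gene lists were recomputed only for the middle blastocyst classes, under both rescalings and the omission of single cells. List counts between letters at the early blastocyst, at the late blastocyst and between stages were recomputed under no other setting. With a minimum mean of 20 RPKM, 1154 genes were higher and 963 lower in GATA4-high cells, 5 epiblast genes were lower, 1385 genes were higher in letter G at the early blastocyst, 1256 in late GATA4-high cells, and 1075 (letter G) and 1228 (letter H) at the middle against the early blastocyst. With medians over cells, 1559 genes were higher in letter G at the early blastocyst and 1269 at the middle blastocyst in letter H; the cause was not tested. A minimum of 20 RPKM tests fewer genes, and asking for 2-fold and no overlap is a stricter call, which left 505 higher and 203 lower. Equal totals and the stage changes within letters were chosen after seeing the data. Classes by title letter gave the same 2283 and 1714 genes, since the classes are the same cells.

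Leaving out 1 cell gave 2208 to 2541 higher and 1659 to 1856 lower genes, 24 to 29 higher hypoblast genes and 8 to 10 lower epiblast genes. Of 170 named genes past 2-fold, 54 lost the call without 1 cell, and 9 changed sign. Their ranges over the 8 omissions were -3.32 to 2.60 for BAX, -2.32 to 2.28 for CDC45, -0.03 to 3.78 for DDIT3, -4.06 to 0.01 for ID4, -2.61 to 0.96 for JAK1, -2.05 to 0.28 for JUNB, -3.15 to 1.34 for LRP6, -3.78 to 0.06 for PGF and -2.98 to 0.75 for SLC7A2. With medians over cells BAX stood at 1.62, CDC45 at -1.91, LRP6 at 0.02 and PGF at 0.04. No paired analysis was possible because the result comes from no test and no cell number marks a shared embryo.

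Depth is known only as a ratio between cells, and no molecular identifiers told PCR copies apart, so a value of 0 in 1 cell limits little. For SERPINH1 the range over the omissions was 8.87 to 9.37, for NID2 7.31 to 8.51 and for CLDN4 -9.72 to -9.40. APOA1 ran from 6.94 to 10.01 (without H-09), DNMT3B from 4.18 to 6.18 (without H-09) and NANOG from -5.53 to -4.31.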
